A study of Mus musculus with 14 samples.

Results

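The mitochondrial ribosomal proteins were taken as every probe set whose single annotated symbol begins with Mrpl or Mrps followed by a digit, which gave 156 of the 45101 probe sets on the array. They cover 76 of 18193 measured genes, 47 named for the large subunit (Mrpl, 104 probe sets) and 29 for the small subunit (Mrps, 52 probe sets). Another 4 probe sets carry several symbols, a member among them, and were not used. Each gene is described by its brightest probe set, and all 76 genes were bright enough to be tested in every comparison. The rule that picks the genes uses their symbols and no measured value.

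RNA came from brain, titled as brain tissue sample, and from vastus lateralis, a thigh muscle of the quadriceps group. The mice were F1 hybrids of FVB and B6. The mutants are labelled PWS-IC del, a deletion of the imprinting center of the Prader-Willi syndrome domain, and the controls were their wild-type littermates of matched age. Each tissue had 4 wild-type and 3 PWS-IC del samples. Every sample was hybridised alone to a mouse expression array of Affymetrix, whose probe sets each report a transcript. The titles call them biological replicas, but whether a numbered brain and muscle came out of a single animal is unstated, as are ages and sexes.

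Both tissues are mixtures of cell types, so fewer cells of a type and less RNA per cell cannot be told apart. Snrpn, a paternally expressed gene of the imprinted domain, checks the labels. Its level, as for all levels here in log2(intensity + 16), was 10.29 to 10.64 in wild-type brain and 5.03 to 6.48 in PWS-IC del brain. In muscle it was 7.07 to 7.16 and 6.37 to 6.97. Markers of the labelled tissues were present, with neuron markers averaging 12.51 to 12.68 over the brain arrays and skeletal muscle fibre markers 13.78 to 13.88 over the muscle arrays. Median intensities ran from 142.0 to 170.1 in brain and from 88.7 to 96.4 in muscle.

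The mitochondrial ribosome translates the few messenger RNAs encoded by mitochondrial DNA, which specify core subunits of the respiratory chain and of ATP synthase. Its ribosomal RNAs are made inside the mitochondrion, whereas all its proteins are encoded in the nucleus, made in the cytosol and imported. Some of these proteins descend from bacterial ribosomal proteins and others were added during the evolution of mitochondria, and brain and skeletal muscle both depend heavily on the respiratory chain they serve. A name does not always give the place, since the proteins of Mrps30 and Mrps18a sit in the large subunit and that of Mrps36 is now assigned to another mitochondrial enzyme complex.

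Promoter sequence was examined because the members varied together across arrays, as given further on. RefSeq promoters of GRCm38.p6, 250 bases before to 50 after a start, were found for 67 of the 76 genes, 73 promoters in all. An ETS-family motif (CCGGAAG, either strand) was present in 34.2% of the members' promoters and 8.86% of all 32851 promoters. The motif of NRF-1, a transcription factor named for nuclear genes of respiration (either strand), was in 16.4% against 4.60%. The YY1 motif (AAGATGGC, either strand) was in 16.4% against 2.75%, the GC box (GGGCGG, either strand, which may overlap the others) in 53.4% against 35.7%, and the TATA motif (TATAAA, either strand) in 6.85% against 13.6%. A start on the opposite strand within 1000 bases was found for 27 of 73 member promoters (37.0%), against 11.4% of all promoters. A match describes the letters only and shows no binding.

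The regions below lie between a member's start and the start of the gene that runs the other way, or, for Mrpl45, are the 120 bases before its start. They are shown because their genes recur in the results: Mrps11 and Mrpl46 share 1 region and belong to different subunits, Mrps27 and Mrpl45 were among the 4 smallest p for the difference between the genotype effects of the tissues, Mrps12 was among the 4 smallest p in muscle, and Mrpl43 shares its region with Twnk, the helicase of mitochondrial DNA. Capitals mark ETS motifs in the regions of Mrps27 (read on the opposite strand) and Mrpl43, and NRF-1 motifs in that of Mrpl45. Sequences run 5′ to 3′ on the strand of the first gene named, from RefSeq promoters of GRCm38.p6.
Mrps11 with Mrpl46, chr7:78783090-78783130, plus strand: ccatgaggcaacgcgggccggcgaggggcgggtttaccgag
Mrps27 with Ptcd2, chr13:99344679-99344785, plus strand: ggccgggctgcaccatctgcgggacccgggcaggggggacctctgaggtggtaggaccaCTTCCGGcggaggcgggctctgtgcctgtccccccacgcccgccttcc
Mrpl43 with Twnk, chr19:45006443-45006557, minus strand: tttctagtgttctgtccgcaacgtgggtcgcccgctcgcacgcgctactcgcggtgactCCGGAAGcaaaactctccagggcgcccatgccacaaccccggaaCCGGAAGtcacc
Mrps12 with Sars2, chr7:28741822-28741967, minus strand: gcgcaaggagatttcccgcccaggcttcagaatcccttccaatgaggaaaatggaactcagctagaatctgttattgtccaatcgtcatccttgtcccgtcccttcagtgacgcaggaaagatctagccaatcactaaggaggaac
Mrpl45, chr11:97315596-97315715, plus strand: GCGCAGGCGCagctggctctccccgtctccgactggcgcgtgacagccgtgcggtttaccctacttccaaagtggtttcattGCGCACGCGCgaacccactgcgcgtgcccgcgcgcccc

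In brain, the group mean of every one of the 76 members was above wild-type in PWS-IC del, by small amounts, and no member passed the test. The difference, PWS-IC del minus wild-type in log2 units, ran from 0.07 to 0.47 with a median of 0.24, against a median of 0.06 over all 13644 genes tested, of which 61.9% were positive. Large and small subunits had nearly the same median, 0.23 and 0.24. With limma and Benjamini-Hochberg adjustment over all genes, 0 of 76 members passed an adjusted p of 0.05, against 0.066% of all genes tested, and the smallest adjusted p of a member was 0.556. At an unadjusted p of 0.05, 11 of 76 members stood out, all higher, where 5.29% of all genes tested did so in that direction. The 3 PWS-IC del arrays lay above all 4 wild-type arrays for 13 of 76 members and below them for 0, where 5.78% of all genes tested lay above.

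Proteins shared with bacterial ribosomes and those specific to mitochondria had similar medians in brain, with no test between them. The median difference was 0.23 over 29 conserved and 0.23 over 20 mitochondria-specific members of the large subunit, and 0.26 over 16 conserved and 0.24 over 10 mitochondria-specific members of the small subunit. With Mrps30 and Mrps18a counted in the large subunit and Mrps36 left out, the medians of the subunits were 0.23 and 0.26.

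The order of the brain arrays did not follow genotype throughout. An array's score was taken as the mean deviation of the 76 members from their brain means. In wild-type replicates 1 to 4 it was -0.33, -0.14, -0.07 and 0.12, and in PWS-IC del replicates 1 to 3 it was 0.11, 0.23 and 0.09. Wild-type replicate 4 therefore lay among the mutants, above 2 of the 3, while wild-type replicate 1 lay far below every other array. The 47 large subunit members and the 29 small subunit members gave the same picture, with -0.32 and -0.33 in wild-type replicate 1 and 0.23 and 0.24 in PWS-IC del replicate 2.

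**Figure D1:**
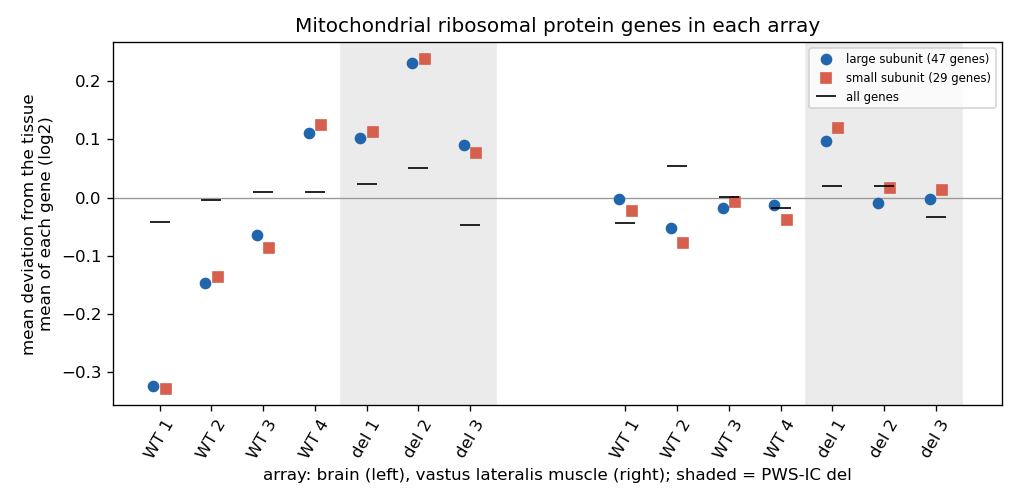
Mean deviation of the large subunit genes (circles) and small subunit genes (squares) from each gene's tissue mean, in log2 units, for each of the 14 arrays, with the mean over all 18193 genes as a black bar. In brain both subunits run from about -0.33 in wild-type replicate 1 to 0.24 in PWS-IC del replicate 2, wild-type replicate 4 lies with the mutants, and the muscle arrays lie close together except for PWS-IC del replicate 1.

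Gene by gene the arrays kept this order. Wild-type replicate 1 was the lowest brain array for 68 of 76 members, and for 36.1% of all genes tested. PWS-IC del replicate 2 was the highest for 65 of 76 members, and for 31.2% of all genes tested. In wild-type replicates 1 to 4, 0, 7, 7 and 71 of the 76 members were above their brain mean, and in PWS-IC del replicates 1 to 3, 70, 76 and 68 were. The spread was also uneven: the SD between arrays was larger in wild-type than in PWS-IC del brain for 70 of 76 members (92.1%), against 65.3% of all genes tested, with median SDs of 0.19 (n = 4) and 0.10 (n = 3) over the members.

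Among large subunit genes, Mrpl1, whose bacterial counterpart forms the stalk beside the exit site for transfer RNA, had the largest difference in brain. Its level was 7.92, 8.20, 8.55 and 8.67 in the wild-type arrays and 8.71, 8.89 and 8.81 in the PWS-IC del arrays. All mutant arrays were above all wild-type arrays, and the difference was 0.47 ± 0.18 (SE; limma, adjusted p = 0.556). Mrpl50, a mitochondria-specific protein, had 9.20, 9.50, 9.84 and 10.03 against 10.11, 10.19 and 9.97. Here wild-type replicate 4 lay above the lowest mutant, and the difference was 0.45 ± 0.19 (SE).

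Mrpl21, a counterpart of bacterial L21, stood at 8.96, 9.25, 9.41 and 9.72 in wild-type brain and at 9.67, 9.87 and 9.77 in PWS-IC del brain, a difference of 0.43 ± 0.17 (SE). Mrpl40, mitochondria-specific, had 9.41, 9.61, 9.80 and 10.10 against 10.09, 10.32 and 10.03, a difference of 0.42 ± 0.16 (SE). In both genes the lowest 3 arrays were wild-type and wild-type replicate 4 overlapped the mutants. Mrpl33, a small conserved protein, was 9.43, 9.51, 9.49 and 9.85 in wild-type and 9.89, 9.90 and 9.85 in PWS-IC del brain. Its groups did not overlap before rounding, and its difference of 0.31 ± 0.12 (SE) was the second smallest in p among large subunit members (limma, adjusted p = 0.556).

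Small subunit genes showed the same array pattern. Mrps23, mitochondria-specific, had 9.09, 9.42, 9.72 and 9.93 in wild-type and 9.94, 10.19 and 9.86 in PWS-IC del brain, a difference of 0.46 ± 0.19 (SE). Mrps18c, 1 of 3 mammalian counterparts of bacterial S18, had 10.47, 10.63, 10.66 and 11.04 against 11.05, 11.14 and 11.07. Its groups came close, at 11.04 and 11.05, without overlap, and it had the smallest p of all members in brain (0.39 ± 0.14, SE; limma, unadjusted p = 0.0219, adjusted p = 0.556).

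Mrps6, the counterpart of the bacterial protein that binds next to S18, differed by 0.38 ± 0.18 (SE), Mrps11, of the platform of the small subunit, by 0.37 ± 0.15 and Mrps31, mitochondria-specific, by 0.34 ± 0.13. In all 3 the highest wild-type array was above the lowest mutant array, for example 10.07 against 10.06 for Mrps31. The other S18 paralogs differed less, Mrps18a by 0.17 ± 0.11 and Mrps18b by 0.21 ± 0.13, and Mrps30 and Mrps36 by 0.20 ± 0.10 and 0.22 ± 0.10.

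The smallest difference in brain was that of Mrpl37, a mitochondria-specific protein. It was 9.84, 9.90, 9.94 and 10.00 in wild-type and 9.98, 10.06 and 9.94 in PWS-IC del brain, with overlap and a difference of 0.07 ± 0.09 (SE), which was -0.01 after quantile normalization. Mrpl3, which lies by the peptidyl transferase center, differed by 0.10 ± 0.09 and Mrpl11, of the stalk base where translation factors bind, by 0.10 ± 0.11, with groups that overlapped. Mrpl4, a counterpart of bacterial L4, differed by 0.13 ± 0.09, with mutant arrays above all wild-type arrays. In the small subunit the lowest were Mrps5 at 0.10 ± 0.11, Mrps17 at 0.12 ± 0.11, Mrps2 at 0.15 ± 0.12 and Mrps34 at 0.16 ± 0.12 (all SE).

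**Figure D2:**
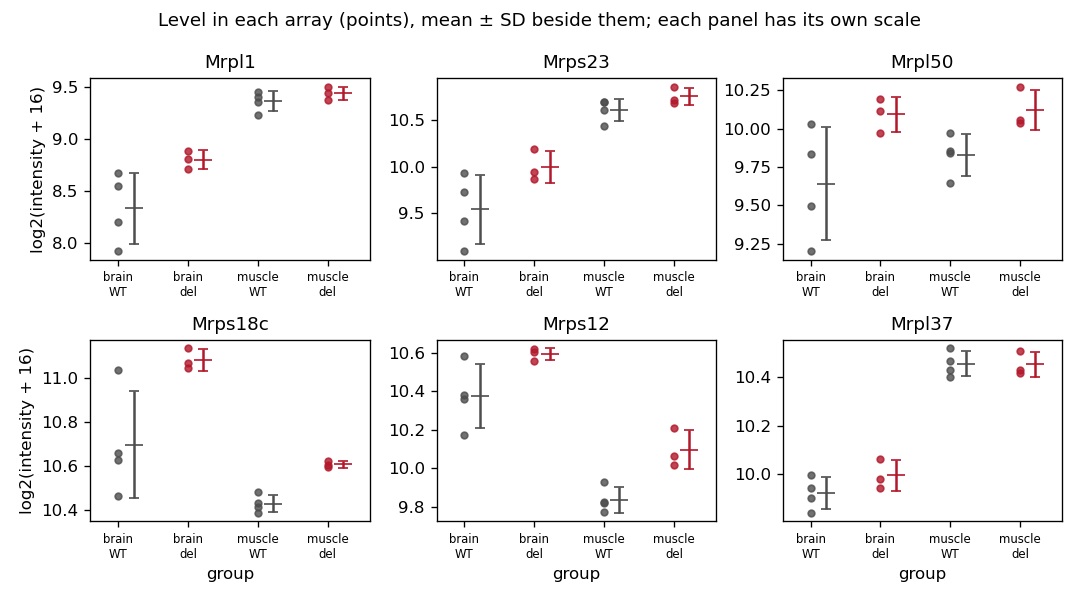
Level of 6 members in log2(intensity + 16) in each array (points), with mean ± SD beside them, in wild-type (WT, 4 arrays) and PWS-IC del (del, 3 arrays) brain and muscle; each panel has its own scale. Mrpl1 and Mrps23 had their lowest values in wild-type brain and lay higher in muscle, and Mrpl37 differed by 0.07 between genotypes in brain. Mrps18c and Mrps12 had lower group means in muscle than in brain on the deposited scale. Between wild-type tissues both genes changed sign under median centring and under quantile normalization.

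Markers of tissue and cell type varied across the same brain arrays. All 7 skeletal muscle fibre markers had negative differences in brain. Their mean level was 10.34, 6.78, 9.66 and 6.99 in wild-type replicates 1 to 4 and 6.30, 6.23 and 6.61 in the PWS-IC del arrays, so it was high in wild-type replicates 1 and 3 and no marker was at 0. The 5 measured striatal neuron markers were all lower in the mutant mean, with levels of 11.20, 10.64, 8.71 and 10.21 against 9.77, 8.64 and 9.95. The 6 cerebellar markers were all higher in the mutant mean, at 7.79 to 9.67 in wild-type brain (highest in replicate 3) and at 7.89, 12.19 and 7.55 in PWS-IC del brain, which placed PWS-IC del replicate 2 far above the rest.

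All 6 endothelium markers were lower in the mutant mean, at 8.18, 8.31, 8.03 and 7.67 in wild-type and 7.69, 7.78 and 7.50 in PWS-IC del brain, and here wild-type replicate 4 again lay with the mutants. Choroid plexus markers were higher in 4 of 5 genes and ranged from 7.85 to 10.07 in wild-type and from 8.45 to 10.01 in PWS-IC del brain. All 5 astrocyte markers were higher in the mutant mean, at 11.56, 11.74, 12.20 and 12.17 in wild-type and 12.18, 12.29 and 11.81 in PWS-IC del brain, so wild-type replicate 1 was lowest and PWS-IC del replicate 2 highest, as for the members. Pituitary markers averaged 9.22 in wild-type replicate 3 and 6.09 to 6.56 in the other brain arrays. Neuron markers ranged only from 12.51 to 12.68 over all brain arrays. The part of any of these in the members' differences was not tested.

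Leaving out arrays moved the size of the brain difference more than its sign. Without wild-type replicates 1 and 3, in which muscle fibre markers were high, the medians were 0.15 (large) and 0.14 (small) with 75 of 76 members positive (56.4% of all genes tested). Without PWS-IC del replicate 2 and wild-type replicate 3, in which cerebellar markers were high, they were 0.20 and 0.20 with 76 positive (55.7% of all genes tested). Without wild-type replicates 1 and 2 they were 0.12 and 0.12 with 76 positive (58.2% of all genes tested). Without wild-type replicate 4 they were 0.29 and 0.32, and 53 members had an unadjusted p under 0.05, as did 19.0% of all genes tested in that fit. Without wild-type replicate 2 or without PWS-IC del replicate 2 it was 0 members, and 5.05% and 2.98% of all genes tested. In each of these settings 0 members passed the adjusted threshold. The main fit also had 0 members, where 0.066% of all genes tested passed.

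**Figure D3:**
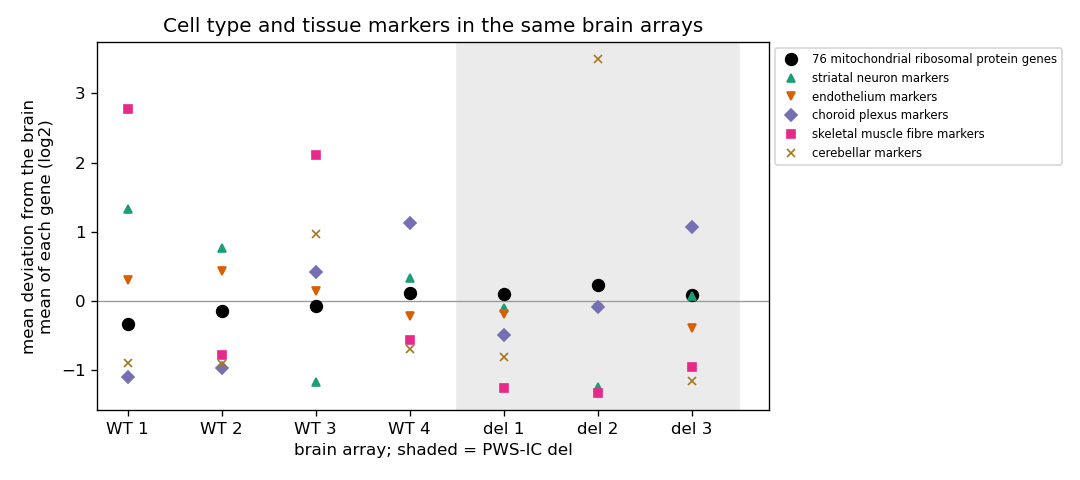
Mean deviation from the brain mean, in log2 units, of the 76 mitochondrial ribosomal protein genes (circles) and of markers of striatal neurons, endothelium, choroid plexus, skeletal muscle fibres and cerebellum in each brain array; shaded arrays are PWS-IC del. The members run from -0.33 to 0.23, muscle fibre markers are high in wild-type replicates 1 and 3, and cerebellar markers in PWS-IC del replicate 2.

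Probe sets of a gene could differ in brain. The brightest probe set was positive for 76 of 76 genes, and the 80 dimmer probe sets were positive in 55, with a median of 0.15. Over all genes 55.1% of the brightest and 53.8% of the other probe sets were positive. Of the 42 members with several probe sets, 21 had the same sign in all of them. Mrpl15, a conserved large subunit protein with 8 probe sets, spanned -0.57 to 0.38 in brain, with its brightest at 0.22. Mrpl54 had 0.29 in its brightest and -0.39 in its other probe set, and Mrpl21 ran from -0.23 to 0.43. With the mean of a gene's probe sets in place of the brightest, 74 of 76 members stayed positive and Mrpl54 turned to -0.05.

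In muscle the members lay close to wild-type. The median difference was 0.07 against 0.02 over all genes tested, and 55 of 76 members were positive against 54.1% of all genes tested. The small subunit had a median of 0.11, with 25 of 29 positive, and the large subunit 0.05, with 30 of 47 positive. No difference between subunits was tested. With limma, 0 of 76 members passed an adjusted p of 0.05 (0.117% of all genes tested did) and the smallest adjusted p was 0.284. Of 7 members at an unadjusted p under 0.05 all were higher (5.91% of all genes tested), and the PWS-IC del arrays lay above all wild-type arrays for 11 members (6.31% of all genes tested) and below them for 1, Mrpl52 (5.86% of all genes tested).

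By array, the members' score was -0.01, -0.06, -0.01 and -0.02 in wild-type muscle and 0.11, 0.00 and 0.00 in PWS-IC del muscle. The mutant mean thus came mostly from PWS-IC del replicate 1, which was the highest array for 41 of 76 members and for 29.2% of all genes tested. Without it the medians were 0.01 (large) and 0.07 (small) and 46 of 76 members were positive, as were 48.1% of all genes tested. The median SD between wild-type arrays was 0.07 over the members (n = 4), well under the 0.19 of wild-type brain. Wild-type replicate 2, the lowest array by score, also stood apart in markers: slow muscle fibre markers averaged 9.13 there and 10.47 to 11.99 in the other muscle arrays, and neuron markers 7.75 there against 5.90 to 6.97 elsewhere. Fat cell markers averaged 9.82, 11.33, 10.36 and 9.90 in wild-type and 10.81, 11.55 and 9.28 in PWS-IC del muscle. All 6 macrophage markers were higher in the mutant mean, at 7.78 to 8.17 in wild-type and 8.29, 8.31 and 8.01 in PWS-IC del muscle. All 4 fibroblast markers were higher too, at 10.77 to 11.46 against 11.44, 11.86 and 10.75. The part of these cell types in the members' differences was not tested.

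Mrpl13, a conserved large subunit protein, had the smallest p in muscle. It stood at 10.86, 10.76, 10.87 and 10.91 in wild-type and 11.10, 11.06 and 11.09 in PWS-IC del muscle, with no overlap (0.23 ± 0.07, SE; limma, adjusted p = 0.284). Mrps12, a protein of the decoding center whose start region with Sars2 is shown above, had 9.82, 9.77, 9.93 and 9.82 against 10.21, 10.02 and 10.06 (0.26 ± 0.08, SE; limma, adjusted p = 0.286). Its partner Sars2, the mitochondrial seryl-tRNA synthetase, differed by 0.07 ± 0.12 (SE). With array quality weights 2 of 76 members passed where 13.6% of all genes tested did, Mrpl13 (0.21; limma, adjusted p = 0.0391) and Mrps25, a mitochondria-specific protein of the small subunit.

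Mrpl50 had the largest difference in muscle, with 9.86, 9.84, 9.64 and 9.97 in wild-type and 10.27, 10.04 and 10.05 in PWS-IC del (0.29 ± 0.10, SE; limma, adjusted p = 0.325). Mrpl36, Mrpl54, Mrps24, Mrps33 and Mrps18c were also among the 4 highest of their subunits, at 0.26, 0.19, 0.19, 0.18 and 0.18. Mrps33 and Mrps18c had no overlap between genotypes, and Mrps18c was 10.39, 10.43, 10.48 and 10.42 against 10.63, 10.61 and 10.60. Mrps18c was thus the S18 paralog with the highest difference in both tissues, Mrps18a and Mrps18b being at 0.05 ± 0.09 and 0.01 ± 0.10 in muscle (SE).

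The negative differences in muscle were smaller. Mrpl52 was at 11.41, 11.40, 11.55 and 11.35 in wild-type and 11.29, 11.34 and 11.30 in PWS-IC del muscle, a difference of -0.12 ± 0.08 (SE). Mrps27, which binds RNA through repeats of the pentatricopeptide family, was at 8.33, 8.32, 8.51 and 8.30 against 8.37, 8.11 and 8.27, with overlap and a difference of -0.12 ± 0.09 (SE). Mrpl45, which lies at the mouth of the exit tunnel facing the inner membrane, Mrpl14, Mrps9, Mrps34 and Mrpl39 lay between -0.11 and -0.08. Mrps5 stood at -0.01 ± 0.08 (SE) and changed sign with the array left out. Probe sets of a gene spread widest in muscle for Mrpl21, from -0.51 to 0.13, Mrpl54, from -0.29 to 0.19, and Mrpl52, from -0.25 to 0.20.

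**Figure D4:**
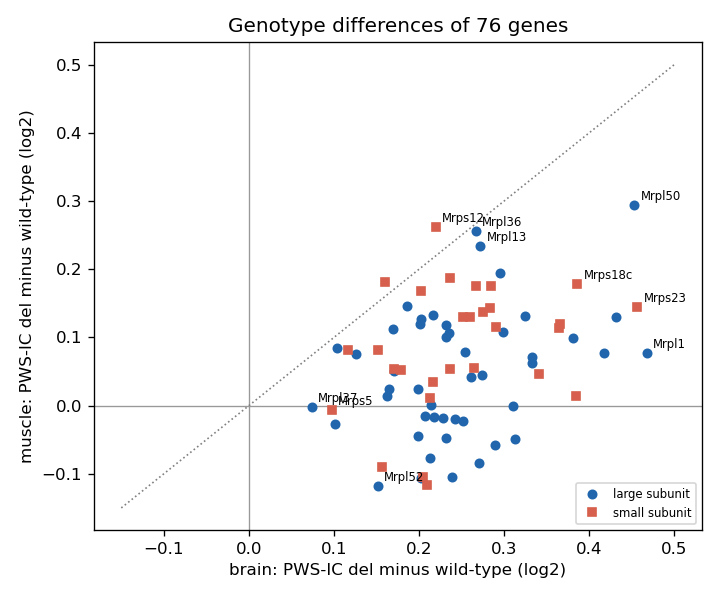
Difference between PWS-IC del and wild-type (log2) of each member in brain (x axis) and muscle (y axis), large subunit as circles and small subunit as squares; the dotted line marks equal differences. All 76 members are positive in brain and 55 in muscle, and 74 lie below the line of equality.

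The difference between the genotype effects, brain minus muscle, was tested over all 14 arrays. It was positive for 74 of 76 members (58.8% of all genes tested) with a median of 0.18 against 0.04 over all genes tested, and 0 members passed an adjusted p of 0.05 (0.088% of all genes tested did so). At an unadjusted p of 0.05 there were 6 members, all higher in brain (4.42% of all genes tested). This test uses the same arrays as the comparisons within tissues. The median was 0.21 in the large and 0.14 in the small subunit, and without brain wild-type replicates 1 and 2 it was 0.08 and 0.04, with 57 of 76 positive (53.0% of all genes tested).

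Mrps27 had the smallest p of the members in this test, at 0.21 ± 0.11 in brain and -0.12 ± 0.09 in muscle, a difference of 0.33 ± 0.14 (SE; limma, adjusted p = 0.719). Mrpl39 followed with 0.35 ± 0.15, Mrpl45 with 0.31 ± 0.13 and Mrpl14 with 0.34 ± 0.15 (SE). These 4 genes had negative values in muscle and positive ones in brain. The largest values were those of Mrpl1 at 0.39 ± 0.21, Mrps6 at 0.37 ± 0.23 and Mrpl47, a counterpart of bacterial L29, at 0.36 ± 0.16. Mrps12 and Mrps33 were the only members with a larger difference in muscle, by -0.04 ± 0.14 and -0.02 ± 0.12 (SE), and both turned positive with median centring of the arrays. Mrpl36, Mrpl11, Mrps17, Mrps30, Mrpl13 and Mrpl27 were next, between 0.01 and 0.04, and all 6 were negative without brain wild-type replicates 1 and 2. Mrpl41, Mrps23 and Mrps9 lay at the upper end, at 0.35, 0.31 and 0.31.

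Between wild-type tissues the members were lower in brain than in muscle relative to other genes. This comparison rests on how arrays are scaled and on which probe sets are used. On the deposited scale 37 of 76 members were lower in brain and 15 higher at an adjusted p of 0.05 (limma), 52 in all, against 82.6% of all genes tested (60.2% higher and 22.4% lower). The median member difference, brain minus muscle, was -0.21, with 27 of 76 positive, and that of all genes tested 0.54, with 70.1% positive. With the mean of a gene's probe sets in place of the brightest, the median of the small subunit turned to 0.000840. After median centring of each array 0 members were higher and 64 lower, where 35.2% and 43.2% of all genes tested were. After quantile normalization the counts were 0 and 65, where the shares of all genes tested were 35.0% and 45.6%. The values below are on the deposited scale, with the value relative to the median of all genes tested where it is named.

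Mrps28, a counterpart of part of bacterial S1, had the lowest value. It stood at 8.87, 9.10, 9.17 and 9.44 in wild-type brain and at 11.49, 11.31, 11.41 and 11.37 in wild-type muscle, a difference of -2.25 ± 0.12 (SE; limma, adjusted p = 3.29e-08), or -2.80 relative to all genes tested. Mrpl42, mitochondria-specific, was 10.86, 11.09, 11.32 and 11.49 in brain and 12.84, 12.90, 12.74 and 12.86 in muscle, a difference of -1.64 ± 0.13 (SE; limma, adjusted p = 7.92e-07). Mrps16, a conserved protein, followed at -1.39 ± 0.11 and Mrpl51, mitochondria-specific, at -1.38 ± 0.12 (SE). The tissues did not overlap in any of these 4 genes, and all 4 were lower in brain under both other scalings too.

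Other conserved members low in brain were Mrpl33 at -1.18, Mrps21 at -1.15 and Mrpl14 at -1.14, and Mrps23, mitochondria-specific, stood at -1.06. Mrpl33 fell short of the threshold with the mean of its probe sets (-0.17, limma, adjusted p = 0.0750).

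At the other end, Mrpl41, mitochondria-specific, was 10.74, 10.87, 10.94 and 11.31 in brain and 10.19, 10.06, 10.08 and 9.96 in muscle, a difference of 0.89 ± 0.12 (SE; limma, adjusted p = 6.60e-05). Mrpl19, conserved, differed by 0.79 ± 0.09 (SE). Relative to all genes tested these were 0.35 and 0.24, and neither passed the threshold after median centring or quantile normalization. Mrpl46, Mrpl49, Mrps6, Mrps25 and Mrps12, at 0.66, 0.62, 0.55, 0.54 and 0.54 on the deposited scale, changed sign under both scalings, and Mrps33, at 0.56, under median centring.

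Of the S18 paralogs, Mrps18b was lower in wild-type brain (-0.72 ± 0.10, SE; limma, adjusted p = 7.46e-05), Mrps18a differed by -0.20 ± 0.10 (SE) and Mrps18c by 0.27 ± 0.12 (SE), the last turning to -0.41 with median centring. Mrps36 was lower in brain by -0.86 ± 0.10 (SE) and Mrps30 by -0.24 ± 0.09 (SE; limma, adjusted p = 0.0309). Mrps30 lost its call without wild-type replicate 1, 3 or 4 of muscle or without wild-type replicate 1 or 3 of brain, with adjusted p between 0.0622 and 0.0796 (limma).

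**Figure D5:**
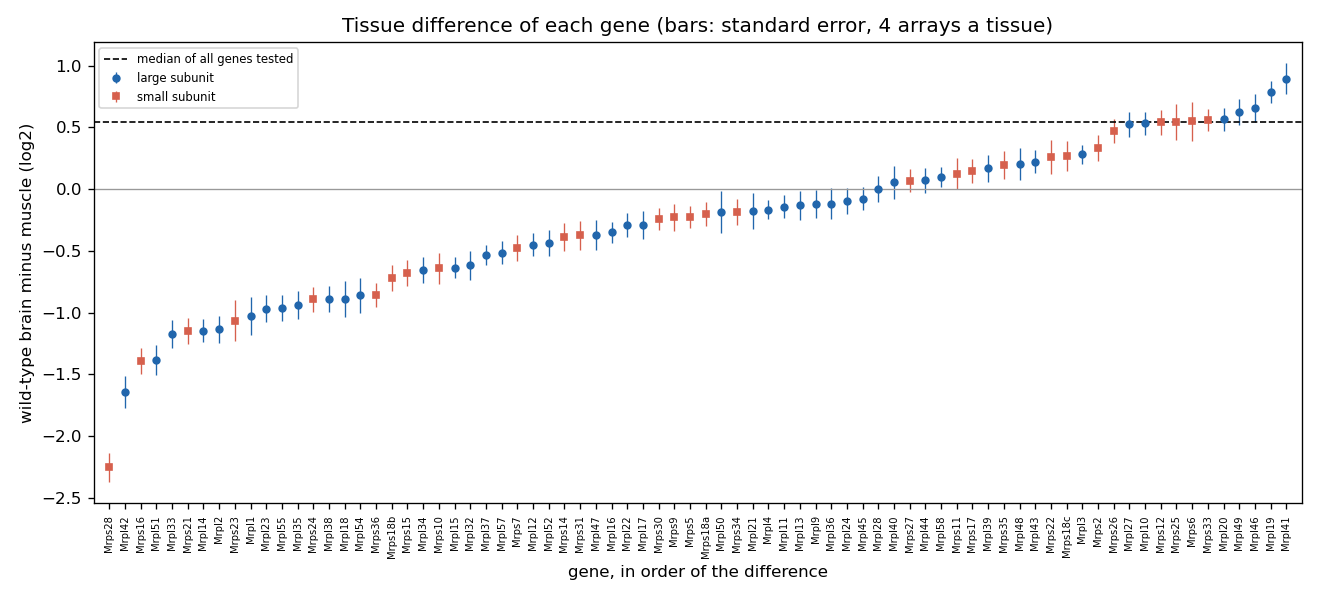
Wild-type brain minus muscle difference (log2, deposited scale) of the 76 members in rising order, large subunit as circles and small subunit as squares, with bars of the standard error (4 arrays a tissue) and the median of all genes tested as a dashed line at 0.54. Mrps28 is lowest at -2.25 and Mrpl41 highest at 0.89, and most members lie below the dashed line.

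Genes that start from the same region as a member, on the opposite strand, were compared with it. Of 25 members with such a measured partner, 2 are each other's partner, Mrps11 and Mrpl46, whose starts lie 42 bases apart and which differed by 0.37 ± 0.15 and 0.24 ± 0.14 in brain and by 0.12 ± 0.08 and -0.02 ± 0.08 in muscle (SE). The other 23 partners had 11 positive values in brain, a median of -0.02 and a range from -0.29 to 0.33, while the 23 members beside them were all positive with a median of 0.23. In muscle 12 of these partners and 13 of their members were positive. Over all measured genes 55.1% were positive in brain and 51.8% in muscle. Of the 23 partners, 20 in brain and 19 in muscle were bright enough to be tested.

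Individual pairs went both ways. Ighmbp2, a helicase gene that starts 32 bases from Mrpl21, stood at -0.29 ± 0.16 in brain beside 0.43 for Mrpl21, and Helq, a DNA helicase, at -0.24 ± 0.16 beside 0.39 for Mrps18c. Twnk was at 0.21 ± 0.10 beside 0.20 for Mrpl43, and Ptcd2 at 0.16 ± 0.10 beside 0.21 for Mrps27 (SE). None of these partners passed the test in brain, where 0.066% of all genes tested did. Members with and without a motif had nearly equal medians in brain, 0.23 and 0.24 for NRF-1, 0.24 and 0.24 for ETS and 0.24 and 0.24 for YY1.

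Other genes of mitochondrial translation are given from lists of known roles. The 4 measured ribosome proteins with other names were all positive in brain, with a median of 0.26, where 61.9% of all genes tested were positive. Among them Gadd45gip1, a large subunit protein, was at 0.37 ± 0.18, Chchd1 at 0.34 ± 0.17, Dap3, a GTP-binding protein of the small subunit, at 0.18 ± 0.10 and Ptcd3 at 0.15 ± 0.12 (SE). Of 22 ribosome assembly and rRNA modification factors, 21 had positive values (median 0.19), led in p by Fastkd2 at 0.52 ± 0.17 and Ddx28 at 0.35 ± 0.13 (SE). In each of these lists 0 genes passed the test in brain, where 0.066% of all genes tested did.

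Of 12 translation factors, 11 had positive values in brain (median 0.15), for example Mtrf1l, a release factor, at 0.33 ± 0.15 and Gfm2, which acts in ribosome recycling, at 0.24 ± 0.12 (SE). So had 8 of 9 genes of mitochondrial transcription and DNA maintenance (median 0.18), such as Tfam, which packages mitochondrial DNA, at 0.26 ± 0.13 (SE). The aminoacyl-tRNA synthetases, with 12 of 19 positive (median 0.10), were near the 61.9% positive of all genes tested. In muscle the medians of the 5 lists ran from -0.01 for translation factors (6 of 12 positive) to 0.07 for the 4 other ribosome proteins (4 of 4 positive). Over all genes tested 54.1% were positive in muscle. In both tissues 0 genes of these lists passed the test, where 0.066% of all genes tested did in brain and 0.117% in muscle.

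Between wild-type tissues the related genes differed in both directions. On the deposited scale 2 of 12 translation factors were higher and 4 lower in brain, where 60.2% and 22.4% of all genes tested were. After median centring the counts were 1 and 10, where 35.2% and 43.2% of all genes tested were higher and lower. Gfm1, an elongation factor, stood at -1.41 ± 0.10, Gfm2 at -1.65 ± 0.12 and Guf1, a GTPase of translation, at 1.39 ± 0.12 (SE). Against the same shares of all genes, 8 of 22 assembly factors were higher and 8 lower on the deposited scale, and 2 and 16 after centring. Malsu1, which binds the assembling large subunit, was at -2.27 ± 0.12 and Dhx30, an RNA helicase, at 1.79 ± 0.08 (SE). All 5 of these genes kept their sign and passed the threshold under both scalings.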

How the data were processed

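The authors deposited a linear intensity for each probe set of each array. PLIER and the Affymetrix Expression Console are named per the submitters' processing notes, and settings, background correction and normalization were not found there. Symbols are those of GEO's annotation of the array, possibly outdated, and all 76 members matched RefSeq by Entrez number.

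Levels were computed as log2 of the deposited intensity plus 16, so changes of dim genes come out too small. For each gene, the brightest probe set with a single symbol was kept, judged over all 14 arrays. Genes at or below the 0.25 quantile were left out, which left 13644. Comparisons were fitted with limma 3.58.1 (lmFit, eBayes) under R 4.3.3, 2-sided, adjusted by Benjamini-Hochberg over all genes tested, with a threshold of 0.05. P-values set a difference between groups against the spread between these samples. An exact permutation test of 3 against 4 arrays cannot give a p under 0.0286. The fits were run on simulated data with noise drawn independently for each gene and planted differences larger than those of the members between genotypes. Such data do not show how the fits treat small differences shared by many genes.

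This gene family and the other lists were chosen for description with earlier results of these data known, although membership follows from symbols. The text names the 4 highest and 4 lowest differences of each subunit, the 4 smallest p, the S18 paralogs, Mrps30 and Mrps36, the widest ranges between probe sets, and up to 4 genes of each related list. Partners in start regions were chosen after their values were seen. Promoters were searched in the RefSeq table of GRCm38.p6 only, since no build is named for the array values.

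Alternatives covered the pseudocount, normalization, filter, choice of probe set, array quality weights, an intensity trend, a joint fit, the replicate number as a block, subunits by placement, a threshold of 0.1 and arrays left out. Fits without brain wild-type 1 and 3, and without brain PWS-IC del 2 and wild-type 3, were chosen after seeing the data. Only some same-numbered samples deviated together, with correlations from -0.51 to 0.47 between genotypes and from -0.02 to 0.14 between tissues, so no number was taken as a pair.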

Additional observations from a re-analysis of the deposited data

Results flagged for a closer look

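In 4 of 98 groups of wild-type arrays examined (4.08%), 1 array stood apart by the ratio of its gap to the group's range, against Dixon's 95% limit for 4 arrays; chance flags about 1 in 20 groups. In wild-type brain the ratio was 0.838 for Mrps36 and 0.855 for Mrps5, and in both replicate 4 was the high array. In wild-type muscle it was 0.914 for Mrpl3, where replicate 3 was low, and 0.838 for Mrps27, where replicate 3 was high.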

How the results depend on the processing

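Values are log2 differences. In brain, 0 members passed the threshold under each alternative run, as in the main fit, where 0.066% of all genes tested passed. The leave-one-out medians ran from 0.17 to 0.29 (large) and 0.17 to 0.32 (small). With array quality weights 2 members passed in muscle, Mrpl13 and Mrps25, and 13.6% of all genes tested. With the replicate block 0 members passed in brain or muscle, and 48 between tissues (81.0% of all genes tested). In brain 38 had an unadjusted p under 0.05, as did 13.5% of all genes tested, with medians of 0.29 (large) and 0.32 (small). In each tissue the highest-numbered wild-type array shares its replicate number with no PWS-IC del array. A block for each number therefore takes that array out of the genotype difference. The brain medians with the block match those of the fit without that array, so they are not a separate check. Small arms and dim probe sets limit what can be detected. The cause of the shifts below was not tested.

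The muscle median of the small subunit was 0.054 with the mean of a gene's probe sets and 0.053 with every probe set. Between wild-type tissues the small subunit median was 0.000840 and 0.044 in these settings. With every probe set, 95 of the members' 156 probe sets passed, a count of probe sets and not of genes. The 156 were counted before the filter, so they include probe sets that were not tested. The share of all probe sets that passed in that fit is not given here, so the count has no background beside it. The 82.6% of all genes tested that passed in the main fit is a share of genes and does not serve as one. The large subunit median ran from -0.32 to -0.15 over the arrays left out. The medians (large, small) were -0.94 and -0.88 after quantile normalization and -0.86 and -0.90 after median centring.

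Signs turned as follows. After quantile normalization, values were -0.012 for Mrpl37 in brain, -0.034 for Mrps18b and -0.00357 for Mrps36 in muscle, and -0.00371 for Mrpl36 and -0.021 for Mrpl11 in the brain minus muscle effect. Between tissues they were -0.12 for Mrpl46, -0.16 for Mrpl49, -0.19 for Mrps6, -0.23 for Mrps25, -0.17 for Mrps12 and -0.38 for Mrps18c. After median centring, they were -0.019 for Mrpl46, -0.051 for Mrpl49, -0.12 for Mrps33, -0.13 for Mrps6, -0.13 for Mrps25, -0.13 for Mrps12 and -0.41 for Mrps18c between tissues, 0.027 for Mrps5 in muscle, and 1.84e-05 for Mrps12 and 0.021 for Mrps33 in the brain minus muscle effect.

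With the mean of probe sets, Mrpl54 was -0.048 in brain and -0.050 in muscle, Mrpl21 -0.22 in muscle and Mrpl11 -0.040 in the brain minus muscle effect. With array quality weights, Mrps18a was -0.010, Mrps18b -0.093 and Mrps36 -0.0073 in muscle, and Mrps12 0.027 in the brain minus muscle effect. Without brain wild-type 1 and 3, Mrpl11 was -0.0073 in brain.

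Without brain wild-type 1 and 2, the large subunit median of the brain minus muscle effect was 0.077, with Mrpl36 at -0.13, Mrpl11 at -0.031, Mrpl13 at -0.14, Mrpl27 at -0.084, Mrps17 at -0.051 and Mrps30 at -0.0052. With 1 array left out, muscle values ran from -0.048 to 0.040 for Mrps5, -0.011 to 0.11 for Mrps36, -0.079 to 0.083 for Mrps18b, -0.015 to 0.090 for Mrps18a. The brain minus muscle effect ran from -0.071 to 0.11 for Mrpl36, -0.056 to 0.062 for Mrpl11, -0.053 to 0.13 for Mrpl13, -0.030 to 0.12 for Mrpl27, -0.025 to 0.11 for Mrps17, -0.043 to 0.13 for Mrps30, -0.11 to 0.029 for Mrps12, -0.076 to 0.038 for Mrps33.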
